A study of Homo sapiens with 12 samples.

Results

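Notch signalling genes were compared between 2 populations of MDA-MB-231, a human cell line long used as a model of triple negative breast cancer. The set held 10 of the 60234 genes of the count table: the ligands JAG1 and JAG2, the receptors NOTCH1, NOTCH2, NOTCH3 and NOTCH4, the target genes HES1, HEY1 and NRARP, and the coactivator MAML2. They were taken by gene symbol, and all 10 passed the filter on low counts, which left 22668 genes. Per the labels, the captured cells are a population named fast that was picked out by the trajectory of its movement, and they were set against the parental population of the same line. Total RNA of cultured cells was sequenced in 12 libraries, 3 of fast and 3 of parental cells in batch 1, and the same in batch 2. The series gives the 2 batches as its biological replicates and the 3 libraries of each as technical replicates, so the p-values measure only how far libraries vary, and that variation may be technical.

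Notch receptors are single-pass proteins that are cut when a ligand on a neighbouring cell binds and pulls on them. The last cut, by gamma-secretase, frees the intracellular part of the receptor, which enters the nucleus, joins the DNA-binding protein RBPJ and a Mastermind-like coactivator, and turns on target genes such as HES1, HEY1 and NRARP. In breast epithelium the pathway is known for its part in cell fate, and Jagged ligands and NOTCH1 have been studied in triple negative disease.

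The libraries held 53267145 to 75944907 counts each. Levels are CPM, counts scaled to a common library size by TMM from the bulk of genes, and before that scaling 1 CPM was about 53.3 counts in the shallowest library. The line's mesenchymal markers were high, with VIM at a mean of 6912 CPM in fast and 5050 in parental cells and CD44 at 705 CPM in fast and 895 in parental cells, while the epithelial cadherin gene CDH1 had 11 counts over all 12 libraries. The list of line markers held 7 genes, VIM, CD44, CDH1, EPCAM, ESR1, PGR and ERBB2, of which 6 were tested. Over both batches 2 of these were higher in fast cells, 2 lower and 2 not called, where 31.9% of all genes tested were higher and 31.5% lower. The progesterone receptor gene PGR was among the 2 higher line markers (log2 fold change 2.12, adjusted p = 6.2e-14, edgeR's quasi-likelihood test). Its level and the values of EPCAM, ESR1 and ERBB2 are not given here, so it is not read as a change in the type of the line. Of 12 endothelial markers 7 were tested, and over both batches 4 were higher and 2 lower in fast cells, beside the same shares of all genes. The 2 lower ones are not named here, and the counts are not read as a shift of the whole list. Their summed level was 311 to 347 CPM in fast and 163 to 190 in parental libraries, carried by ESAM and ROBO4. Of the listed endothelial markers, ERG, CDH5, TEK and EMCN had 0, 36, 10 and 6 counts over all libraries. EGFL7, on the same list, was higher in fast cells (log2 fold change 1.48, adjusted p = 2.4e-21, edgeR's quasi-likelihood test). Smooth muscle and fibroblast markers summed to 21.8 to 24.9 CPM in fast and 24.0 to 28.2 in parental libraries, with DCN and LUM at 0, and leukocyte markers to 1.15 to 1.60 CPM in fast and 1.44 to 2.53 in parental libraries, with CD3D and MS4A1 at 0. The part of these marker levels in the Notch results was not tested.

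The ligands changed most. JAG1 was about 4-fold lower in fast cells while JAG2, a much weaker gene, was 2.40-fold higher, and both held in each batch. Of the receptors, NOTCH1 was 1.27-fold higher over both batches and called in each, and NOTCH2, by far the most abundant, differed by only -0.06 on the log2 scale. The targets did not move one way: NRARP was 2.20-fold higher, whereas HES1 and HEY1 were lower over both batches. Over both batches 8 of the 10 genes passed an adjusted p of 0.05 in edgeR's quasi-likelihood test with Benjamini-Hochberg adjustment, against 63.4% of all genes tested. On sums of the 3 technical replicates 6 of the 10 were called, with NOTCH2 and HES1 lost. The share of all genes called on those sums is not given here. Of the 8, 3 were higher and 5 lower, where 31.9% of all genes were higher and 31.5% lower. Within batch 1, 8 of 10 were called, beside 56.1% of all genes, with 3 higher and 5 lower beside 29% and 27.1%. Within batch 2, 4 of 10 were called, beside 56% of all genes, with 3 higher and 1 lower beside 27.4% and 28.6%. Since most genes of the table were called, these counts are not particular to the 10 genes. NOTCH1, JAG1, JAG2 and NRARP were called with the same sign in both batches, 4 of 10 where 46% of all genes were. The same 4 genes had no overlap between the 6 fast and the 6 parental libraries, which held for 38.4% of all genes. Within batch 1 the libraries of 9 of the 10 genes did not overlap, beside 60.5% of all genes, and within batch 2 those of 7, beside 61.2%. JAG1, JAG2 and NRARP differed by at least 2-fold with a call, which 10.9% of all genes did. A lower total in bulk RNA cannot tell fewer expressing cells from less RNA per cell.

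**Figure D1:**
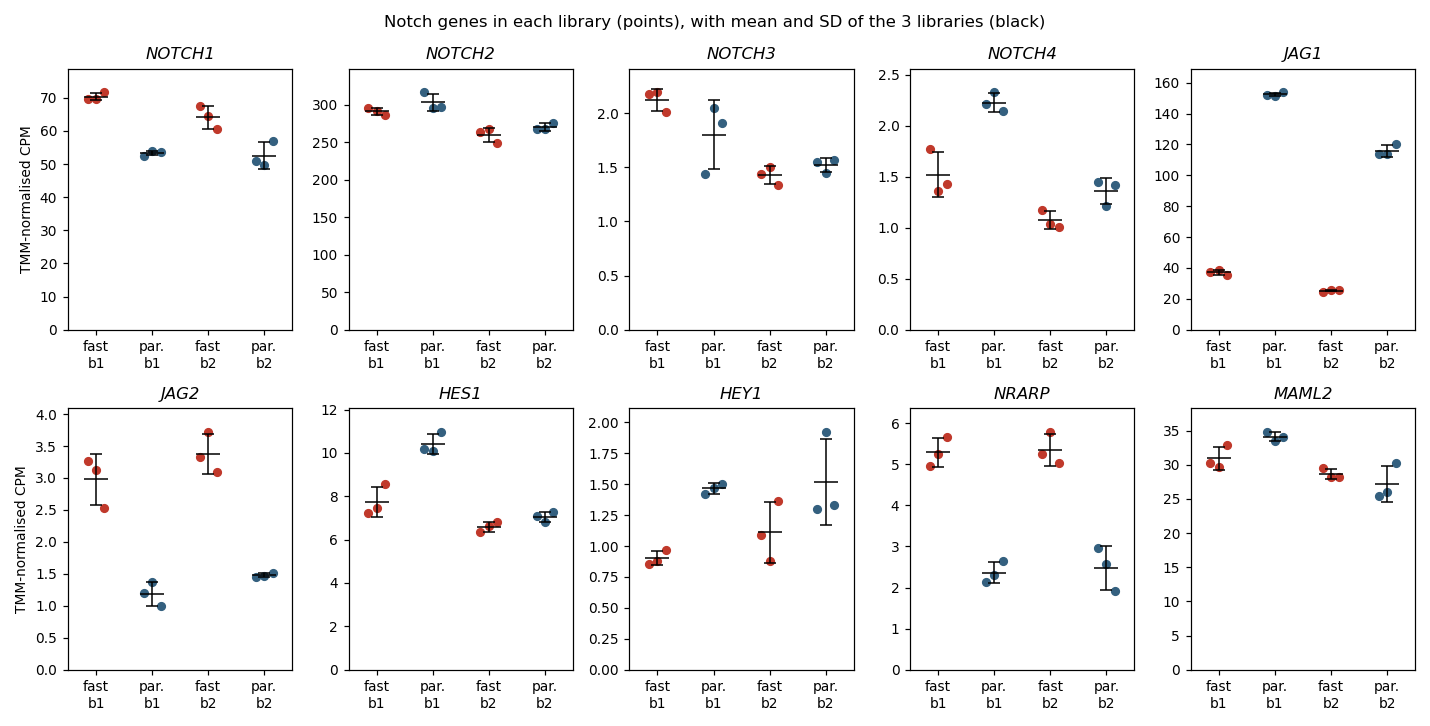
TMM-normalised CPM (y axis, linear from 0, with its own range in each panel) of the 10 Notch genes in every library (points), with the mean and SD of the 3 libraries in black, for fast and parental (par.) cells of batch 1 (b1) and batch 2 (b2). The fast and parental points stand fully apart in both batches for JAG1, JAG2, NOTCH1 and NRARP, and lie close together or mixed for NOTCH2, NOTCH3 and MAML2.

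The promoters of the 4 genes that carry the ligand and target results are shown so that the start of each gene can be read beside its values. They are the RefSeq sequences of GRCh38.p14 from 250 bases before to 50 bases after the gene's start, on the gene's own strand. Capitals mark matches to TGGGAA, the core of the motif bound by RBPJ, or to GTGGGAA, which adds the base before it and contains it.
JAG1 (chr20:10673950-10674249, minus strand): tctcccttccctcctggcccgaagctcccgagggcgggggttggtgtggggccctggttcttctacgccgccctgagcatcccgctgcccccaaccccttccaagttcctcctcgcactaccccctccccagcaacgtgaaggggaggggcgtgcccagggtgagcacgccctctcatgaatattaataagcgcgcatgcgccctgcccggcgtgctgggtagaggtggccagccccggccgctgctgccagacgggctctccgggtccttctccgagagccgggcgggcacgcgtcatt
JAG2 (chr14:105168727-105169026, minus strand): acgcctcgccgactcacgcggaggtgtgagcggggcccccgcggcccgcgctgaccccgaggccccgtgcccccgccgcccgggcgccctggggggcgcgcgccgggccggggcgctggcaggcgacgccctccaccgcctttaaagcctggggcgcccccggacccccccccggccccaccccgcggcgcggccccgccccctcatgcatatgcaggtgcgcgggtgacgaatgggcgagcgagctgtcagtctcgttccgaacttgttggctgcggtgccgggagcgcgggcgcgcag
HES1 (chr3:194135898-194136197, plus strand): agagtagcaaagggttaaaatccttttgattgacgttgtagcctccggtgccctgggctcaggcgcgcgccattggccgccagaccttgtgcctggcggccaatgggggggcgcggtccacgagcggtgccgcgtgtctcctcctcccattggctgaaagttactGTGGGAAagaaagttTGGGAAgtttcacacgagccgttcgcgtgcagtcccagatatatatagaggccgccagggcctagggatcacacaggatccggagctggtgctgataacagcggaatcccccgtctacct
NRARP (chr9:137302222-137302521, minus strand): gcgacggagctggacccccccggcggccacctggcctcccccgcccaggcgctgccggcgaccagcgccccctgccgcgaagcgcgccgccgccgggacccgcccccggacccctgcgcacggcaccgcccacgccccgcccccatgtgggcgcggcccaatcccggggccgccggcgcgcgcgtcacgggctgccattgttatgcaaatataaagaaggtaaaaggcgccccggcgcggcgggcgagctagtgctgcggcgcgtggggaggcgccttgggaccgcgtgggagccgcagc
RefSeq promoters were found for 9 of the 10 genes, all but HEY1, and HES1 was the 1 of these 9 with a match on either strand. It held GTGGGAA 85 bases before the start and TGGGAA 84 and 70 bases before it, all on the gene's strand, so that the first TGGGAA lies inside the GTGGGAA. Of 27305 promoters of the same length, 6.28% held GTGGGAA, 24.3% held TGGGAA and 3.81% held TGGGAA at least 2 times. TGGGAA was added to the search after the promoters had been seen. The promoters of JAG2 and NRARP each held 46 CG pairs, JAG1 24 and HES1 21, beside a median of 14 over all promoters. A match is a description of letters, and no match says only that they are not in the window.

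JAG1 (ENSG00000101384, chromosome 20) codes for a transmembrane Notch ligand and was the stronger Jagged gene in every library. In batch 1 its level was 37.5, 38.6 and 35.4 CPM in fast libraries, against 152, 151 and 154 CPM in parental libraries. In batch 2 it was 24.7, 25.7 and 25.7 CPM in fast libraries, against 114, 114 and 120.4 CPM in parental libraries. Every fast library was below every parental one, and the spread inside each group of 3 was small beside the gap. Over both batches the means were 31.3 ± 6.54 CPM in fast and 134 ± 20.1 in parental cells (SD, n = 6 libraries each). The log2 fold change was -2.11 ± 0.03 (SE), or 4.32-fold lower (adjusted p = 7.24e-33, edgeR's quasi-likelihood test). It was -2.03 within batch 1 and -2.19 within batch 2, and the test of the difference between these gave an adjusted p of 0.0928. The level also moved with the batch inside each population: batch 2 over batch 1 was -0.55 (log2) in fast and -0.39 in parental cells.

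The table holds a second row with the symbol JAG1, under the identifier ENSG00000270408, which the annotation used here does not list. It took 5.75% to 7.16% of the counts of both JAG1 rows in fast and 6.40% to 7.23% in parental libraries. Its level was 2.89, 2.36 and 2.62 CPM in fast against 10.9, 11.5 and 10.5 CPM in parental libraries of batch 1. In batch 2 it was 1.58, 1.82 and 1.81 CPM in fast against 8.87, 8.17 and 8.96 CPM in parental libraries. This row fell too, by 2.19 ± 0.08 (log2, SE, adjusted p = 2.96e-22, edgeR's quasi-likelihood test). How reads were split between the rows is not known here.

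JAG2 (ENSG00000184916, chromosome 14) codes for the other Jagged ligand and went the opposite way. In batch 1 it stood at 3.27, 3.13 and 2.53 CPM in fast libraries, against 1.19, 1.36 and 0.993 CPM in parental libraries. In batch 2 it stood at 3.33, 3.72 and 3.09 CPM in fast libraries, against 1.45, 1.46 and 1.51 CPM in parental libraries. The lowest fast library was above the highest parental one, although a library held only 64 to 259 counts of the gene. The change was 1.26 ± 0.11 (log2, SE, adjusted p = 9.49e-12, edgeR's quasi-likelihood test). It was 1.33 in batch 1 and 1.19 in batch 2, and the difference between batches did not pass the test (adjusted p = 0.828).

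Set per kilobase of each gene's longest annotated transcript, JAG1 remained the main Jagged gene in both populations. Its level was 5.27 CPM per kb in fast and 22.6 CPM per kb in parental cells, and that of JAG2 was 0.54 CPM per kb in fast and 0.23 CPM per kb in parental cells. JAG1 made up 87.2% to 93.2% of the summed Jagged level per kb in fast libraries and 98.7% to 99.3% in parental libraries. The sum of both was 4.73 to 7.04 CPM per kb in fast and 19.4 to 26.1 CPM per kb in parental libraries. The rise of JAG2 was thus small in transcript terms beside the fall of JAG1. The ratio of JAG1 to JAG2 counts was 6.93 to 14.0 in fast and 77.6 to 155 in parental libraries.

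NOTCH1 (ENSG00000148400, chromosome 9), a receptor known for activating mutations in T-cell leukaemia, was higher in fast cells by a small and even margin. In batch 1 it had 69.7, 69.6 and 71.6 CPM in fast libraries, against 52.5, 53.9 and 53.6 CPM in parental libraries. The batch 2 values were 67.4, 64.4 and 60.6 CPM in fast libraries, against 51.1, 49.6 and 57.1 CPM in parental libraries. No library crossed between the groups, though the closest pair, both of batch 2, was only a few CPM apart. This was a log2 fold change of 0.34 ± 0.04 (SE, adjusted p = 2.34e-10, edgeR's quasi-likelihood test), with 0.40 in batch 1 and 0.29 in batch 2.

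NOTCH2 (ENSG00000134250, chromosome 1) was the strongest receptor in all libraries. It had 296, 292 and 286 CPM in fast against 317, 296 and 297 CPM in parental libraries of batch 1. Batch 2 gave 264, 267 and 249 CPM in fast against 268, 267 and 276 CPM in parental libraries. Within each batch the highest fast library lay just below the lowest parental one, but across batches the groups overlapped widely. The log2 fold change of -0.06 ± 0.03 (SE) passed narrowly over both batches (adjusted p = 0.0474, edgeR's quasi-likelihood test) and in neither batch (adjusted p = 0.134 and 0.132). The call was lost when any 1 of 10 libraries was left out (adjusted p 0.0697 to 0.259). Among these fits it remained only without fast batch 2 replicate 1 or 2. It was also lost on sums of the 3 libraries (adjusted p = 0.441), without the batch term (adjusted p = 0.351) and with a replicate block (adjusted p = 0.0863), and was kept under 4 other settings. Within batch 1 a call appeared under 5 other settings (adjusted p 0.00601 to 0.0326) and when any fast library of batch 2 or parental batch 2 replicate 3 was left out (0.017 to 0.0338). Near-identical NOTCH2NL copies on chromosome 1 could share its reads, so its level is uncertain.

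NOTCH3 (ENSG00000074181, chromosome 19), best known from vascular smooth muscle, was low, with 82 to 147 counts per library. It had 2.17, 2.19 and 2.01 CPM in fast against 1.44, 2.05 and 1.91 CPM in parental libraries of batch 1. In batch 2 it had 1.44, 1.51 and 1.34 CPM in fast against 1.55, 1.45 and 1.57 CPM in parental libraries. The groups overlapped in both batches, and the log2 fold change of 0.08 ± 0.13 (SE) did not pass (adjusted p = 0.618, edgeR's quasi-likelihood test).

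NOTCH4 (ENSG00000204301, chromosome 6), known from endothelium, was also low, with 68 to 150 counts per library. It had 1.77, 1.36 and 1.43 CPM in fast against 2.21, 2.33 and 2.14 CPM in parental libraries of batch 1. The libraries of batch 2 had 1.17, 1.03 and 1.01 CPM in fast against 1.45, 1.22 and 1.41 CPM in parental libraries. The fast libraries were below the parental ones within each batch, yet fast libraries of batch 1 reached the level of parental libraries of batch 2. The log2 fold change was -0.45 ± 0.13 over both batches (SE, adjusted p = 0.00306, edgeR's quasi-likelihood test), -0.55 in batch 1 (adjusted p = 0.00914) and -0.34 in batch 2 (adjusted p = 0.133). The batch 1 call was lost without fast batch 1 replicate 2 (adjusted p = 0.0578). A further 6 rows with the symbol NOTCH4 had 0 counts.

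Per kb, the order of the receptors was NOTCH2 above NOTCH1 above NOTCH3 and NOTCH4 in both populations. NOTCH2 made up 75.3% to 76.4% of the summed receptor level in fast and 78.8% to 81.9% in parental libraries. NOTCH1 made up 22.1% to 23.6% in fast and 16.6% to 19.9% in parental libraries, so that neither share overlapped between the populations. NOTCH1 and NOTCH2 made up nearly all of the sum, so their shares mirror each other and are not separate results. NOTCH3 held 0.54% to 0.75% in fast and 0.49% to 0.73% in parental libraries, and NOTCH4 held 0.50% to 0.77% in fast and 0.62% to 1.06% in parental libraries. In fast libraries the order of these last 2 receptors was mixed, while in parental libraries NOTCH4 lay above NOTCH3 in all 6, with no overlap inside either batch. The summed receptor level, 28.6 to 34.0 CPM per kb in fast and 29.1 to 33.9 CPM per kb in parental libraries, overlapped almost entirely.

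HES1 (ENSG00000114315, chromosome 3), a basic helix-loop-helix repressor and the textbook Notch target, was lower in fast cells of batch 1. There it had 7.22, 7.47 and 8.54 CPM in fast libraries, against 10.2, 10.1 and 11.0 CPM in parental libraries. Batch 2 gave 6.35, 6.64 and 6.81 CPM in fast libraries, against 7.10, 6.81 and 7.25 CPM in parental libraries. The batch 1 groups stood clear of each other, while in batch 2 the highest fast and the lowest parental library all but met. The log2 fold change was -0.43 in batch 1 (adjusted p = 3.65e-05, edgeR's quasi-likelihood test) and -0.10 in batch 2 (adjusted p = 0.374). The difference of 0.34 between these effects did not pass (adjusted p = 0.114), though DESeq2 gave 0.0462. Over both batches it was -0.27 ± 0.07 (SE, adjusted p = 0.00118, edgeR's quasi-likelihood test), and the call was lost without the batch term (adjusted p = 0.0615). Parental cells themselves differed between batches, with batch 2 at -0.56 (log2) from batch 1 (adjusted p = 1.89e-06, edgeR's quasi-likelihood test), where 30% of all genes were called. This was a larger step than the effect in either batch.

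HEY1 (ENSG00000164683, chromosome 8) codes for a related repressor and was low, with 50 to 139 counts per library. It had 0.856, 0.879 and 0.964 CPM in fast against 1.42, 1.47 and 1.51 CPM in parental libraries of batch 1. In batch 2 it had 1.09, 0.875 and 1.37 CPM in fast against 1.30, 1.92 and 1.33 CPM in parental libraries. The groups were apart in batch 1 and overlapped in batch 2. Its log2 fold change was -0.57 ± 0.15 over both batches (SE, adjusted p = 0.0013, edgeR's quasi-likelihood test), -0.71 in batch 1 (adjusted p = 0.00558) and -0.45 in batch 2 (adjusted p = 0.0627). Leaving out replicate 3 of the fast or replicate 1 of the parental libraries of batch 2 brought a call there (adjusted p 0.0326 to 0.0491), whereas the value shrank to -0.28 without fast batch 2 replicate 2 (adjusted p = 0.326) and to -0.23 without parental batch 2 replicate 2 (adjusted p = 0.44).

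NRARP (ENSG00000198435, chromosome 9), a Notch target whose small ankyrin-repeat protein binds the nuclear complex and dampens it, was higher in fast cells. In batch 1 it had 4.96, 5.25 and 5.67 CPM in fast libraries, against 2.14, 2.29 and 2.64 CPM in parental libraries. In batch 2 it had 5.24, 5.78 and 5.02 CPM in fast libraries, against 2.97, 2.57 and 1.90 CPM in parental libraries. All fast libraries stood above all parental ones, and the fast level was nearly the same in both batches. This came to a log2 fold change of 1.14 ± 0.10 (SE, adjusted p = 2.05e-12, edgeR's quasi-likelihood test), with 1.16 in batch 1 and 1.12 in batch 2. The 3 targets therefore split, with NRARP called higher in both batches and HES1 and HEY1 called lower in batch 1.

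MAML2 (ENSG00000184384, chromosome 11) codes for a Mastermind-like coactivator and differed little. It had 30.3, 29.6 and 32.9 CPM in fast against 34.8, 33.5 and 34.1 CPM in parental libraries of batch 1. The batch 2 values were 29.5, 28.2 and 28.2 CPM in fast against 25.4, 26.1 and 30.3 CPM in parental libraries. The fast libraries were lower in batch 1 and mixed with the parental ones in batch 2. Its log2 fold change was -0.04 ± 0.05 over both batches (SE, adjusted p = 0.515, edgeR's quasi-likelihood test), -0.14 in batch 1 (adjusted p = 0.0271) and 0.07 in batch 2 (adjusted p = 0.294). The batch 1 call was lost without fast batch 1 replicate 1 or 2 or parental batch 1 replicate 1 or 3 (adjusted p 0.0724 to 0.176). Without parental batch 2 replicate 3 the batch 2 value was called higher (adjusted p = 0.00598).

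**Figure D2:**
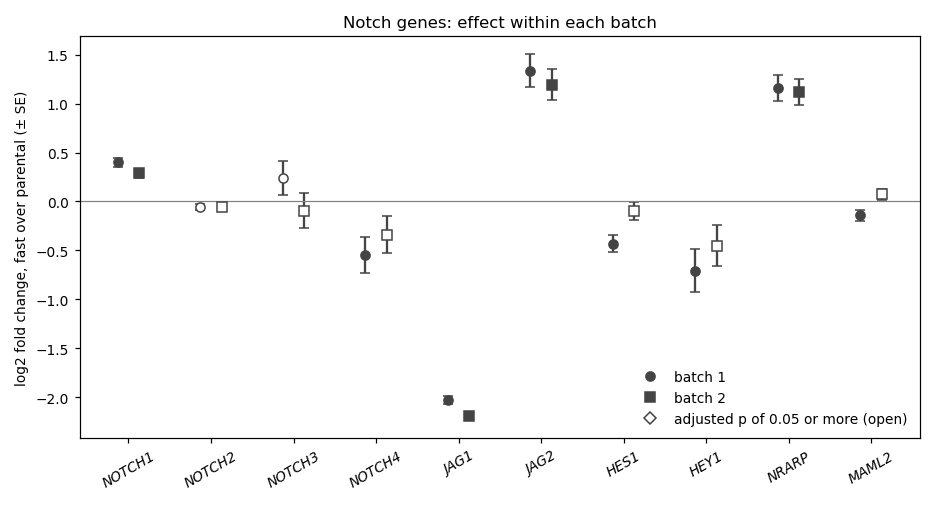
Log2 fold change of fast over parental cells (y axis, with SE bars) of the 10 Notch genes within batch 1 (circles) and batch 2 (squares), open where the adjusted p was 0.05 or more. JAG1 lies at -2.03 and -2.19, JAG2 and NRARP lie above 1, and HES1, HEY1, NOTCH4 and MAML2 are filled in batch 1 only.

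The difference of the effect between the batches was called for 0 of the 10 genes by edgeR's quasi-likelihood test, beside 5.4% of all genes. An unadjusted p under 0.05 was found for 3 of the 10. The share of all genes at that unadjusted threshold is not given here, so this count cannot be placed. The lowest adjusted p was 0.0928, for JAG1. DESeq2 called 2 of the 10, HES1 and MAML2, and the share of all genes it called is not given here. For MAML2 the difference of 0.21 (adjusted p = 0.114) was also called by edgeR on all 12 libraries with no filter (0.28, adjusted p = 0.0117) and with only genes averaging 1 CPM or more (0.25, adjusted p = 0.0431), and without fast batch 2 replicate 2 or 3 or parental batch 2 replicate 3 (adjusted p 0.00203 to 0.0489). The batches themselves differed inside a population: batch 2 against batch 1 was called for 5 of the 10 genes in fast cells, beside 27.2% of all genes, and for 5 in parental cells, beside 30%.

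Beyond the 10 genes, 74 other genes of the pathway were listed by role and 67 were tested. Over both batches 24 were higher, 31 lower and 12 not called, so that 82.1% were called beside 63.4% of all genes tested, of which 31.9% were higher and 31.5% lower. The 67 genes had a median log2 fold change of -0.09 beside 0.01 over all genes tested. Within batch 1 it was 25 higher and 28 lower, and within batch 2 it was 21 higher and 32 lower, 79.1% called in each, beside 56.1% and 56% of all genes. The lists were chosen with earlier results of these data known, so these larger shares are not read as a result about the pathway. Unless said otherwise, the genes named next are up to 3 per role with the largest fold changes among those averaging 1 CPM or more and called alike in both batches. Their means are given with SD over 6 libraries of each population.

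Of the 9 other ligands, 6 were tested, with 4 higher and 2 lower in fast cells. DNER, a transmembrane protein with EGF-like repeats described as a Notch ligand, averaged 28.97 ± 3.43 CPM in fast and 14.1 ± 1.98 in parental cells (log2 fold change 1.04). MFAP2, a glycoprotein of extracellular microfibrils, averaged 11.3 ± 0.771 CPM in fast and 6.91 ± 1.23 in parental cells (0.72). DLK2, a Delta-like protein described as an inhibitor, averaged 9.60 ± 0.963 CPM in fast and 12.0 ± 0.966 in parental cells (-0.32). The Delta ligands DLL4 and DLL1 had a mean under 1 CPM over all libraries and were chosen after their values were seen. DLL4 averaged 1.49 ± 0.334 CPM in fast and 0.413 ± 0.223 in parental cells, a log2 fold change of 1.87 ± 0.22 (SE, adjusted p = 9.46e-09, edgeR's quasi-likelihood test). DLL1 averaged 1.12 ± 0.175 CPM in fast and 0.533 ± 0.112 in parental cells, a log2 fold change of 1.06 ± 0.18 (SE, adjusted p = 5.68e-06, edgeR's quasi-likelihood test). JAG2, DLL1 and DLL4 were thus all higher in fast cells, at levels far under that of JAG1: per kb DLL4 was at 0.43 CPM in fast and 0.12 in parental cells and DLL1 at 0.35 CPM in fast and 0.17 in parental cells.

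Of 9 genes for receptor maturation and glycosylation, all were tested, with 2 higher, 6 lower and 1 not called. LFNG, the fringe enzyme that extends sugars on the receptors and alters their response to ligands, had the largest fold change of the list, with means of 12.6 ± 0.956 CPM in fast and 5.72 ± 0.486 in parental cells (log2 fold change 1.14 ± 0.07 SE, adjusted p = 1.69e-16, edgeR's quasi-likelihood test). POGLUT1, which adds O-linked glucose to the receptors, was also higher, at 30.2 ± 1.35 CPM in fast and 19.5 ± 1.30 in parental cells (0.63). XXYLT1, which lengthens that sugar with xylose, was lower, at 28.0 ± 1.12 CPM in fast and 40.2 ± 0.597 in parental cells (-0.52).

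Of 8 genes for cleavage, 3 were higher, 3 lower and 2 not called. The alternative gamma-secretase subunits went apart. APH1A averaged 93.8 ± 2.53 CPM in fast and 142 ± 6.03 in parental cells (log2 fold change -0.60), while APH1B averaged 9.93 ± 0.856 CPM in fast and 7.02 ± 0.932 in parental cells (0.50). NCSTN, the nicastrin subunit, averaged 83.4 ± 4.04 CPM in fast and 97.5 ± 6.52 in parental cells (-0.22).

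Of 14 genes for trafficking and degradation, 13 were tested, with 4 higher, 6 lower and 3 not called. DTX4, a Deltex-family ubiquitin ligase, had the widest change of all listed genes, with 16 counts in all fast and 877 in all parental libraries, or 0.041 ± 0.039 CPM in fast and 2.27 ± 0.497 in parental cells. Its log2 fold change was -5.73 ± 0.28 (SE, adjusted p = 1.11e-18, edgeR's quasi-likelihood test). With so few fast counts it moved to -6.46 without fast batch 2 replicate 2, and the batch 2 value of -5.29 ran from -6.87 without that library to -4.66 without fast batch 2 replicate 1. Its relative DTX3 averaged 4.04 ± 0.687 CPM in fast and 8.32 ± 1.31 in parental cells (-1.04). AAK1, a kinase of clathrin-coated endocytosis, averaged 24.9 ± 2.58 CPM in fast and 19.5 ± 1.79 in parental cells (0.35).

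Of 19 genes for the nuclear complex and its cofactors, 18 were tested, with 5 higher, 8 lower and 5 not called. RBPJ itself had 158 ± 5.08 CPM in fast and 156 ± 11.0 in parental cells and was not called (adjusted p = 0.498, edgeR's quasi-likelihood test), and it was chosen after its value was seen. The coactivator MAML3 averaged 7.82 ± 2.25 CPM in fast and 12.5 ± 3.24 in parental cells (log2 fold change -0.69). The acetyltransferase KAT2B averaged 19.96 ± 1.48 CPM in fast and 31.7 ± 1.90 in parental cells (-0.67).

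Of 15 other target genes, 13 were tested, with 6 higher, 6 lower and 1 not called. Within batch 1 it was 7 higher and 6 lower, and within batch 2 it was 3 higher and 6 lower. The repressor gene HES2 averaged 4.06 ± 0.432 CPM in fast and 1.39 ± 0.373 in parental cells (log2 fold change 1.57), and HES7, known from the segmentation clock of the embryo, averaged 1.68 ± 0.343 CPM in fast and 0.733 ± 0.091 in parental cells (1.18). The transcription factor gene SOX9 averaged 91.3 ± 7.82 CPM in fast and 55.6 ± 6.86 in parental cells (0.72). HEYL and HEY2, relatives of HEY1 at under 1 CPM and chosen after their values were seen, were lower. HEYL had 24 counts in all fast and 188 in all parental libraries (-3.002, adjusted p = 2.11e-07, edgeR's quasi-likelihood test), and HEY2 had 90 counts in all fast and 224 in all parental libraries (-1.32, adjusted p = 0.000113). HES5, chosen likewise, had 72 counts in fast and 15 in parental libraries and was called over both batches (2.15, adjusted p = 0.00143, edgeR's quasi-likelihood test) but not within batch 2 (adjusted p = 0.366).

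**Figure D3:**
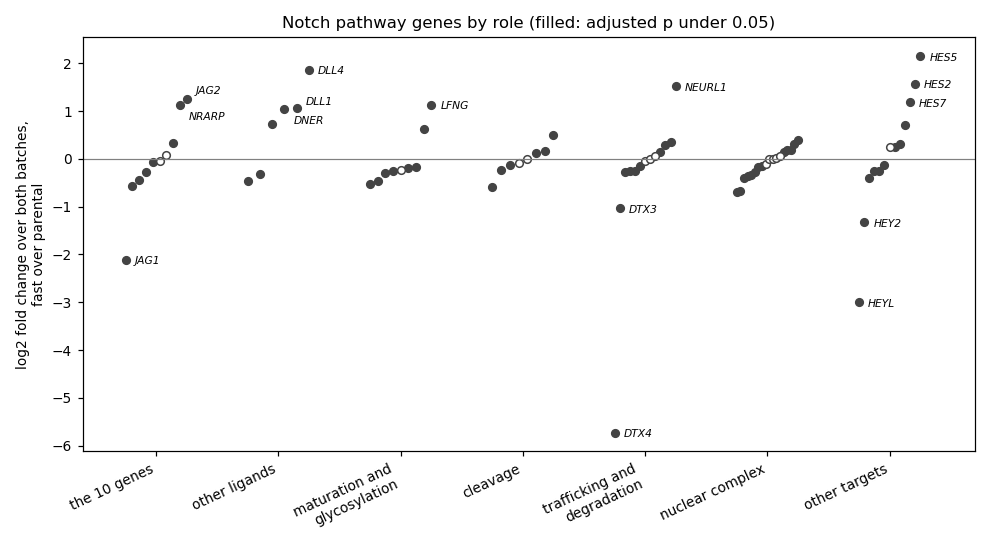
Log2 fold change of fast over parental cells over both batches (y axis) for the 10 Notch genes and the tested genes of the 6 other role lists (x axis, sorted within each list), filled where the adjusted p was under 0.05 and labelled beyond a log2 fold change of 1. Most genes lie within 1 of 0, DTX4 lies lowest at -5.73, and each of the ligand and target lists holds genes on both sides.

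The fold changes of the 10 genes were set beside those of the 20 nearest tested genes on their chromosome, 10 on each side averaging 1 CPM or more, with order taken from GENCODE release 29. NRARP stood among neighbours that moved the same way: all 20 were called higher, their median log2 fold change was 0.62, and NRARP was above that by 0.52. NOTCH1, on the same chromosome, had 16 neighbours called higher and 4 lower, with a median of 0.42, slightly above its own 0.34. Its highest neighbour was EGFL7 at 1.48, a gene also on the endothelial marker list. HES1 had 16 neighbours called lower and 1 higher, with a median of -0.31 beside its own -0.27.

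The 2 Jagged genes were the extremes of their stretches, though not by a wide margin. JAG1 was the lowest of its 21 genes, with 12 neighbours called lower, 3 higher and a median of -0.48, and the next gene along, the clone-named RP11-103J8.1, was level with it at -2.10. JAG2 was the highest of its 21 genes, with 14 neighbours called lower, 5 higher and a median of -0.27. AHNAK2, 3 genes away, was close to it at 1.14, and the 2 genes beside it, RP11-44N21.4 at 0.98 and NUDT14 at 0.89, were higher in fast cells as well. The sources used here do not say whether counting used the strand, so reads of genes that overlap cannot be told apart. The other 5 genes had neighbour medians between -0.21 for NOTCH3 and 0.05 for MAML2. Next to NOTCH4 a run of HLA class II genes from HLA-DRA to HLA-DQB1 lay between -1.60 and -4.68. The HLA-DRB genes among them are close copies of each other, so their values are uncertain. The part of chromosome position in these values was not tested.

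**Figure D4:**
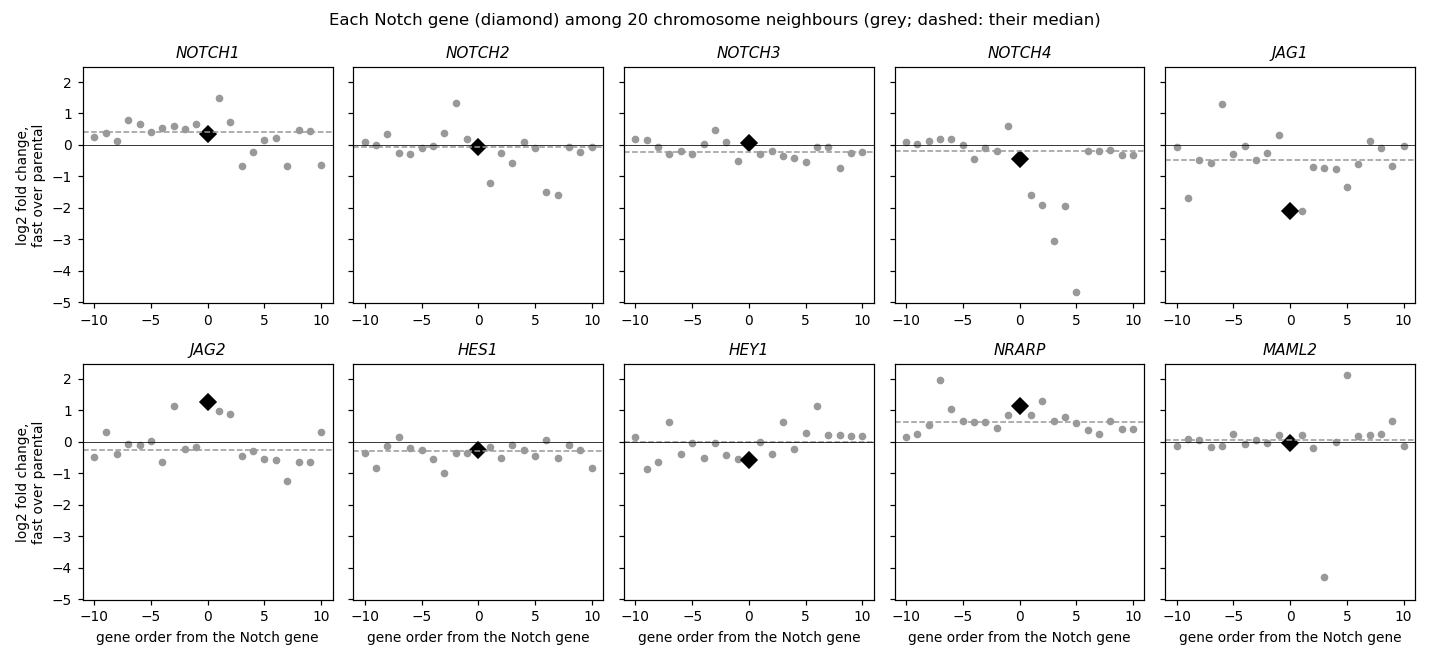
Log2 fold change of fast over parental cells over both batches (y axis) for each of the 10 Notch genes (black diamond) and the 10 tested genes on each side in chromosome order (x axis, grey points, dashed line at their median). JAG1 lies below and JAG2 above all 20 of their neighbours, NRARP lies among neighbours that are all above 0, and NOTCH1 and HES1 lie near their neighbours' medians.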

How the data were processed

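The authors deposited unnormalized read counts for 60234 genes in each of 12 libraries, and every column was matched to its sample by the labels. The submitters' processing notes name Trimmomatic 0.32, STAR 2.3.0e and featureCounts 1.4.4 and the builds hg19 and GRCh37. Strand use and the handling of multiply matched reads are not given in the sources used here, which bears on overlapping genes and near-identical copies.

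Totals were 53267145 to 75944907 counts per library. edgeR 4.0.16 (R 4.3.3) was run on the counts with TMM scaling, its filter on low counts (minimum count 10, minimum total 15) and a robust quasi-likelihood fit over all 12 libraries. Group means for each population in each batch gave the within-batch effects and the difference between them, and an additive batch term gave the effect over both. Benjamini-Hochberg adjustment ran over all 22668 genes, with 0.05 as the threshold, and fold changes are fast over parental. Alternatives were another scaling, other filters, DESeq2 1.42.0, other designs and leaving out each library. The steps were tested on simulated data. GENCODE release 29 (GRCh38) gave chromosome order and transcript length by gene ID only, and promoters are RefSeq's on GRCh38.p14.

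The 10 genes and the lists were chosen with earlier results of these data known. From each of 6 lists of other pathway genes, up to 3 were named by the largest fold change among those averaging 1 CPM or more and called alike in both batches. A gene that this rule names is not reported here. Replicate numbers are those of the sample titles, and they did not pair the libraries. Some columns of batch 1 carry other numbers in their names, and pairing by those was not checked.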

Additional observations from a re-analysis of the deposited data

Results flagged for a closer look

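None of the 10 Notch genes and 5 of the 67 other pathway genes tested (7.46%) passed the test of the difference between the batches, beside 5.4% of all genes. Neither count is read as particular to its list. The 5 genes are described next. Each is given as the fast over parental log2 fold change in batch 2 minus that in batch 1, with the adjusted p of edgeR's quasi-likelihood test. ID3, an inhibitor of helix-loop-helix factors, differed by -1.06 (adjusted p = 1.05e-10). It was higher in fast cells of batch 1 (0.80), at 18.4 ± 1.25 CPM in fast and 10.6 ± 0.282 in parental libraries, and lower in batch 2 (-0.26), at 18.8 ± 1.91 CPM in fast and 22.5 ± 1.14 in parental libraries (SD, n = 3 each), so that its fast level was alike in both batches and its parental level was not. The difference was 0.71 for HES2 (adjusted p = 0.0478), 0.45 for MFAP2 (adjusted p = 0.0255), 0.41 for NEURL1B (adjusted p = 0.00452) and -0.22 for CREBBP (adjusted p = 0.0126). HES2 and MFAP2 were higher in fast cells of both batches, with 1.23 and 1.94 for HES2 and 0.50 and 0.95 for MFAP2. NEURL1B was called higher in batch 2 (0.28) and was at -0.14 in batch 1, where it was called lower under 5 other settings (adjusted p 0.0193 to 0.045) and in 4 of 12 fits with a library left out (0.0321 to 0.045). CREBBP was called in batch 1 only (0.17). The differences of ID3 and NEURL1B stayed called whichever library was left out, though the lower value of ID3 in batch 2 was lost without fast batch 2 replicate 1 (adjusted p = 0.0657). Those of the others did not: HES2 was lost in 8 of 12 such fits (adjusted p 0.0766 to 0.151), MFAP2 in 6 (0.0507 to 0.0885) and CREBBP in 5 (0.0569 to 0.235).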

How the results depend on the processing

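Of 368 refits of the members' called fold changes under other settings, all 368 kept their direction and 348 kept the call. The refits reuse the same libraries, and some leave out a library of the batch that the effect does not concern, so they are not independent. Calls that appeared only under another setting are outside this count. The count of members with a called difference between batches was 0 and became 1 with no filter and 1 with only genes averaging 1 CPM or more (MAML2 in both), 2 with DESeq2, and 0 to 1 when a library was left out. With a replicate block 8, 4 and 7 of the 10 genes were called within batch 1, within batch 2 and over both, NOTCH2 being lost (adjusted p = 0.0863). The counts of members in this section stand without the share of all genes called under the same setting. They are not read as particular to the 10 genes. Libraries with the same number in their titles correlated at -0.0763 to 0.074. Not every library correlated best with its own number, so the title numbers gave no pairing. Values near 0 changed sign. The NOTCH2 difference between batches was 0.0302 with RLE scaling, 0.0618 with no filter, 0.0356 with the 1 CPM filter and 0.0301 with DESeq2, and the NRARP difference was 0.0174 with no filter. Taking away the median of 20 neighbours, a step with no test that is not among the 368 refits, also changed the sign of called values. NOTCH1 went from 0.34 to -0.081, HES1 from -0.27 to 0.0434 and NOTCH2 from -0.06 to 0.0197. With 1 library left out, NOTCH2 in batch 2 ran from -0.0552 to 0.0027, MAML2 over both batches from -0.0659 to 0.0008, CREBBP in batch 2 from -0.071 to 0.0263, and the differences between batches from -0.0294 to 0.0889 for NOTCH2, -0.15 to 0.10 for NRARP and -0.15 to 0.003 for NOTCH1. On sums of the 3 libraries 6 of the 10 genes were called over both batches, with HES1 (adjusted p = 0.0648) and NOTCH2 (0.441) lost. The cause was not tested. Counts of at most 150 per library limit NOTCH3, NOTCH4 and HEY1.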
